A study of Mus musculus with 2 samples.

Results

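The 37 genes described here encode the Eph receptors and their ephrin ligands, the Slits and their Robo receptors, and the netrins, netrin-G proteins and netrin receptors. They were taken from 32285 genes counted in single nuclei of the mouse amygdala, by matching each gene's Ensembl identifier to its symbol, and all 37 had a row. One library came from wild-type C57BL6/J mice and 1 from mice labelled Sema6d-/-, both aged 6 to 8 weeks. Sema6d encodes a transmembrane semaphorin, itself a guidance protein; no source used here states how many animals went into each library or which part of the gene was deleted. Each genotype had 1 library, so no comparison below has a test or a replicate, and intervals cover counting error only.

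Ephrins are membrane-bound ligands that bind Eph receptor tyrosine kinases on a touching cell and can signal in both directions. Slits are secreted proteins that repel growing axons through Robo receptors. Netrin-1 attracts axons through DCC and repels them through UNC5 receptors, while netrin-G proteins are membrane-anchored, do not bind DCC, and act at synapses through NGL partners. In the adult brain many of these genes stay on in neurons and glia, where they are known for roles at synapses and in myelinating cells.

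After filtering, 10337 nuclei with a median of 7179 UMIs (unique molecular identifiers, 1 per captured RNA molecule) remained in the library labelled WT, and 7916 with a median of 6414 in the library labelled KO. Sema6d was not lower in the library labelled KO: over all nuclei its level was 632 CPM (UMIs of the gene for every 1000000 UMIs of the same nuclei) in the library labelled WT and 686 in the library labelled KO, and in excitatory neurons at 576 and 675. A count over the whole gene cannot show the loss of a single exon, so this neither checks nor contradicts the genotype. The libraries are therefore called by their labels throughout. Nuclei were assigned to gates, each defined by marker genes detected in the nucleus, and a gate is a range cut from scores rather than a cell type; 212 and 158 nuclei lay near a cut. The excitatory class held 1168 and 866 nuclei, the inhibitory class 4930 and 3028, astrocytes 829 and 607, oligodendrocytes 542 and 1048, oligodendrocyte precursors 164 and 211, and microglia 111 and 227. Nuclei with markers of more than 1 class (300 and 456) were left out, and 128 cell barcodes occurred in both libraries.

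To show how unlike the start regions of these genes are, the 250 bases before the RefSeq start site are given for 3. Bases are from GRCm38.p6, on the gene strand, 5′ to 3′. Unc5b was highest in oligodendrocytes, Ephb1 was lower in excitatory neurons of the library labelled KO, and Epha6 was highest in Foxp2 Tshz1 neurons. Capitals mark the GC box GGGCGG, or CCGCCC where it lies on the other strand. A TATA box, TATAAA or TTTATA, was also searched, and the motifs cannot overlap.
Unc5b, chr10:60831582-60831831, minus strand: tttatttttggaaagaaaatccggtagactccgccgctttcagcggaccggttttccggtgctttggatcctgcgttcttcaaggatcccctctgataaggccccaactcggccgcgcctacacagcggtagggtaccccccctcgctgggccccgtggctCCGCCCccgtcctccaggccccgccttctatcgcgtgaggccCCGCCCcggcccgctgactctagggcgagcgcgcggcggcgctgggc
Ephb1, chr9:102354694-102354943, minus strand: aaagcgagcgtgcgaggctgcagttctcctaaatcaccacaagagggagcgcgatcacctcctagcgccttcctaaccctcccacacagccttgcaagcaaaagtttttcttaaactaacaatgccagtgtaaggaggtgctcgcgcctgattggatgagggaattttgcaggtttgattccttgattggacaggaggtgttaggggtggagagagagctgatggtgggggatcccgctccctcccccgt
Epha6, chr16:60605532-60605781, minus strand: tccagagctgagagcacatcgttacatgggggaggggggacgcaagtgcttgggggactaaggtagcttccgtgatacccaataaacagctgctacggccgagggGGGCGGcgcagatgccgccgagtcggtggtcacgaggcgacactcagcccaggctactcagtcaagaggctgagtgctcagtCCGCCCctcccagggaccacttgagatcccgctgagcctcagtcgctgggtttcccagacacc
The Unc5b window held 27 CG dinucleotides and 2 GC boxes, the Epha6 window 15 and 2, and the Ephb1 window 10 and 0. None of the 3 held the TATA box. Of all 32851 windows of this length, 32.7% held a GC box and 12.4% a TATA box, and the median number of CG dinucleotides was 6. Among the 37 windows listed for 32 of the genes, 26 held a GC box, 2 held a TATA box and the median CG number was 18. In the GENCODE vM21 annotation the Ephb1 window overlaps an exon of the lincRNA Gm26846 on the plus strand and the Epha6 window an exon of the antisense gene Gm9017, and the Unc5b window overlaps no exon. These are letters in a window and were not tied to any level below.

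Together the genes took 1.01% of all UMIs in each library, and 8 of them carried 82.9% of that sum in the library labelled WT and 83.2% in the other. Of the 37, 26 had at least 1000 UMIs over both libraries and 4 (Epha1, Epha2, Ephb4 and Efna4) had under 100. Gene spans ranged from 4.64 to 1100 kb, with 19 of at least 100 kb. Per kb of gene span, the ephrin ligand Efnb3 had the highest level over all nuclei, at 2.71 and 2.85 CPM per kb in the libraries labelled WT and KO. Next came Epha10, a receptor whose kinase domain is thought inactive, at 2.33 and 2.37, and Epha5 at 1.97 and 2.47. These 2 changed places between the libraries. Dcc, the member with most UMIs, stood at 1.76 and 1.65 on this scale. A kit that reads RNA from its 5′ end counts molecules and not lengths, so the order per kb is a description only.

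Of the 37 genes, 30 reached 50 UMIs in at least 1 of 18 gates, and 20 of these were highest in the same gate in both libraries. The share of all genes that kept their highest gate was not measured, so this count is a description only. The other 7 stayed under 50 in every gate. Below, 2 values joined by "and" are CPM in the library labelled WT and then in the library labelled KO.

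**Figure D1:**
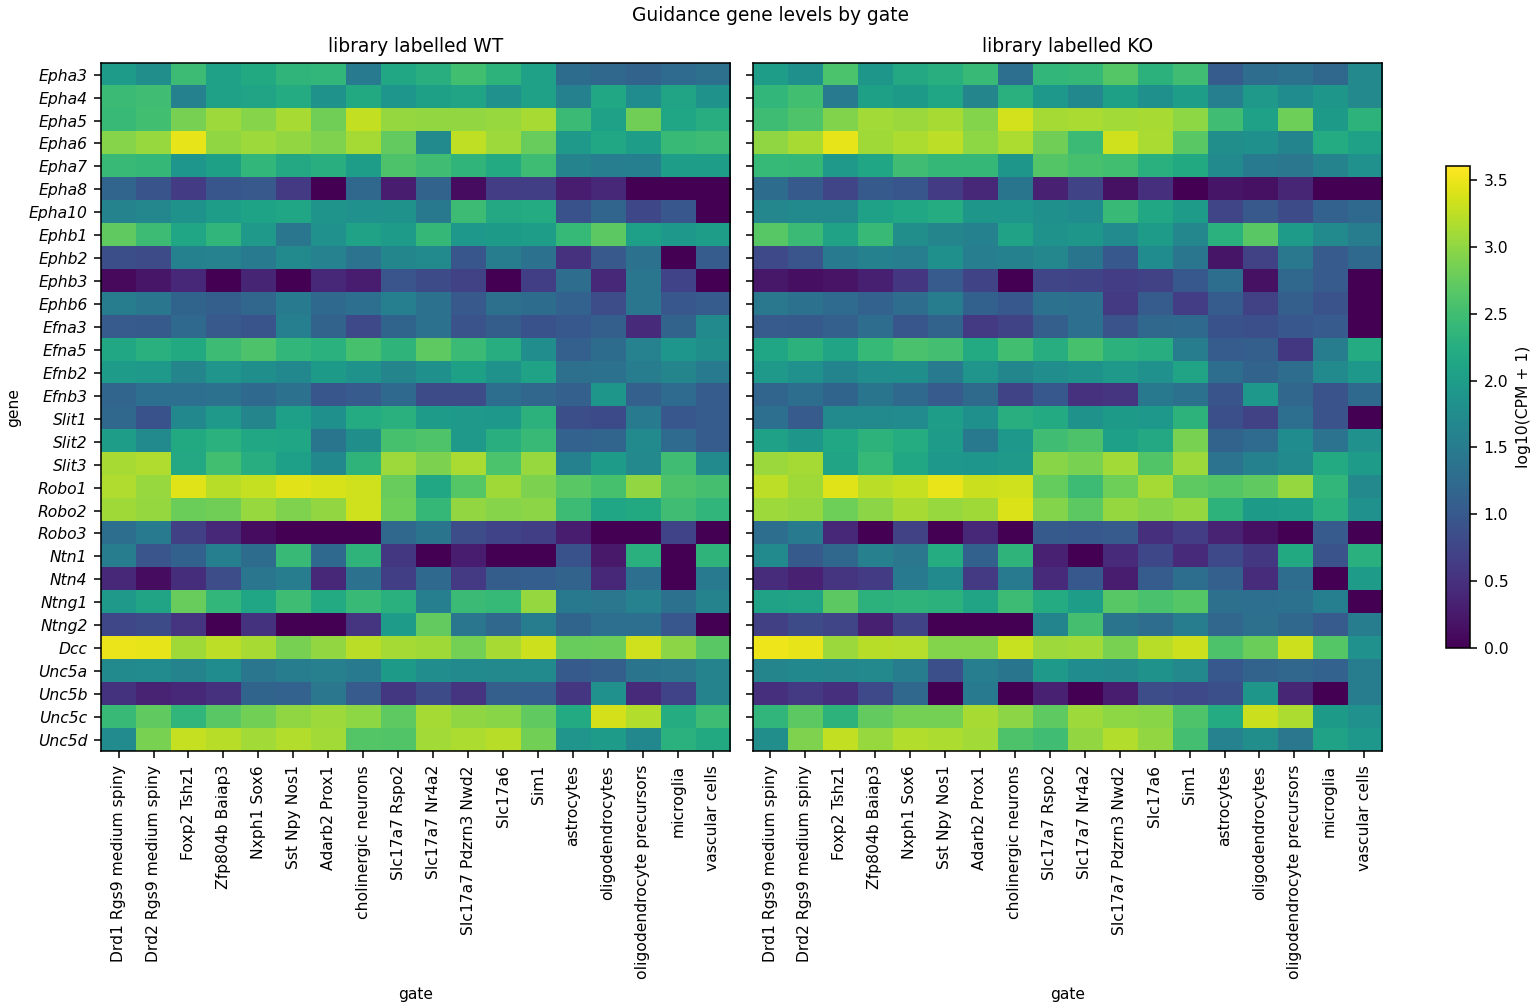
Levels of the 30 guidance genes with at least 50 UMIs in a gate, as log10(CPM + 1), in 18 gates (columns) of the library labelled WT (left) and the library labelled KO (right). Dcc is brightest in the medium spiny gates, Unc5c in oligodendrocytes and Epha6 in Foxp2 Tshz1 neurons in both panels.

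Among the EphA receptors, which mostly bind ephrin-A ligands, the abundant members were highest in different gates, except that Epha3 and Epha10 shared one. Epha6 was highest in Foxp2 Tshz1 neurons, at 2908 and 2971, against 882 and 997 in Drd1 Rgs9 medium spiny neurons. Epha5 was highest in cholinergic neurons, a gate of only 99 and 37 nuclei, at 1881 and 2282. Epha4, a receptor that also binds ephrin-B ligands, was highest in Drd2 Rgs9 medium spiny neurons at 316 and 320 and low in Foxp2 Tshz1 neurons at 36.8 and 28.4. Epha4 and Epha6 thus had opposite extremes in the Foxp2 Tshz1 gate, and the libraries gave the same order. Epha3 was highest in Slc17a7 Pdzrn3 Nwd2 excitatory neurons at 325 and 450, where Epha10 also peaked at 297 and 262. Epha7 peaked in Slc17a7 Rspo2 excitatory neurons at 392 and 433. Epha8 was scarce, with its highest value in cholinergic neurons at 14.9 and 24.3.

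The EphB receptors, which bind ephrin-B ligands, were fewer in UMIs. Ephb1 had 2 high gates: Drd1 Rgs9 medium spiny neurons at 524 and 456, and oligodendrocytes at 487 and 474. These gates changed places between libraries. Ephb3, with 193 and 161 UMIs in all, had its highest level in a glial gate in each library. It stood at 24.7 and 15.6 in oligodendrocyte precursors and 18.2 and 18.9 in astrocytes. In excitatory neurons it stood at 4.46 and 4.40, and in inhibitory neurons at 0.79 and 1.43. Ephb4, best known from blood vessels, had 41 and 34 UMIs in all, and stood at 12.4 and 10.6 in astrocytes. Ephb6, whose kinase domain lacks activity, stood at 35.3 and 21.1 in Slc17a7 Rspo2 neurons, its highest gate in the library labelled WT. In the library labelled KO it was highest in Sst Npy Nos1 neurons, at 32.9, in a gate of only 37 nuclei there. Ephb2 reached 52.5 in Slc17a7 Nr4a2 neurons of the library labelled WT and 62.5 in Sst Npy Nos1 neurons of the library labelled KO.

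Of the ephrins, Efna5 and Efnb2 were highest in neuron gates and Efnb3 in oligodendrocytes. Efna5, a lipid-anchored ligand, stood at 516 and 361 in Slc17a7 Nr4a2 neurons and at 394 and 364 in Nxph1 Sox6 neurons, against 11.5 and 10.1 in astrocytes. Efnb2, a transmembrane ligand, was highest in Sim1 neurons at 119 and 124. Efnb3, another transmembrane ligand, known as a midline barrier, stood at 80.0 and 82.2 in oligodendrocytes against 11.5 and 14.2 in their precursors. Efna3 had no stable place: its highest gate was vascular cells in the library labelled WT and Slc17a7 Nr4a2 neurons at 19.96 in the other. Efna1, Efna2, Efna4 and Efnb1 did not reach 50 UMIs in any of the 18 gates. In the broader excitatory class Efnb1 stood at 7.64 and 5.31 and Efna2 at 3.26 and 2.302.

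The Slits were divided among neuron gates. Slit3 was highest in Drd2 Rgs9 medium spiny neurons at 1486 and 1316, followed by Slc17a7 Pdzrn3 Nwd2 neurons at 1371 and 1270, and was low in Foxp2 Tshz1 neurons at 147 and 127. Slit1 was highest in Sim1 neurons at 205 and 212, and stood at 126 and 117 in excitatory against 29.5 and 34.5 in inhibitory neurons. Slit2 was highest in Slc17a7 Nr4a2 neurons of the library labelled WT at 399, where the library labelled KO gave 392. In Sim1 neurons Slit2 stood at 277 and 741, so the libraries differed in the highest gate. The Sim1 gate had 31 and 58 nuclei, and 1 cluster held 29.0% of them in the library labelled WT and 82.8% in the other, so its values compare different mixtures of nuclei. No cluster held 10 nuclei of this gate in each library, so no value with equal mixtures could be given.

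Of the Robo receptors, Robo1 and Robo2 were abundant and Robo3 was scarce. Robo1 was highest in Sst Npy Nos1 neurons at 2748 and 3016 and stood at 1592 and 1772 in inhibitory against 543 and 610 in excitatory neurons. Robo2 was highest in cholinergic neurons at 2152 and 2555. Robo3, a divergent receptor known from midline crossing in the hindbrain, was highest in Drd2 Rgs9 medium spiny neurons at 29.8 and 30.9, against 3.88 and 1.58 in Foxp2 Tshz1 neurons.

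Netrin-1 and its receptors differed in their highest gate. Ntn1 had few UMIs and 4 high gates. They were Sst Npy Nos1 neurons at 263 and 168, cholinergic neurons at 216 and 221, oligodendrocyte precursors at 191 and 155, and vascular cells, of which there were 72 and 50 nuclei, at 222 and 194. In excitatory neurons it stood at 1.91 and 1.30. Ntn4, a laminin-binding netrin with 443 and 374 UMIs in all, was highest in Sst Npy Nos1 neurons of the library labelled WT, at 31.3. In the other it was highest in vascular cells, at 97.0. The Sst Npy Nos1 gate held 46 and 37 nuclei, so both Ntn4 peaks came from small gates and few UMIs. The netrin-G genes had different gates: Ntng2 stood at 547 and 346 in Slc17a7 Nr4a2 neurons and at 4.18 and 4.51 in inhibitory neurons, while Ntng1 stood at 574 and 499 in Foxp2 Tshz1 neurons and at 35.0 and 99.8 in Slc17a7 Nr4a2 neurons. Ntng1 was also high in Sim1 neurons, at 1083 and 445.

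Dcc, the attractive netrin receptor, was detected in all 18 gates and was highest in Drd1 Rgs9 medium spiny neurons at 3143 and 3204. Among glia it stood at 2157 and 2108 in oligodendrocyte precursors and 600 and 623 in oligodendrocytes. Unc5c, a repulsive receptor, stood at 2354 and 2034 in oligodendrocytes and 1548 and 1423 in precursors, its 2 highest gates in both libraries. Unc5b, another repulsive receptor, stood at 66.3 and 78.4 in oligodendrocytes and at 1.65 and 1.42 in precursors. Unc5d was highest in Foxp2 Tshz1 neurons at 1946 and 1864. Unc5a was highest in Slc17a7 Rspo2 neurons at 89.6 and 86.6, and stood at 31.3 and 6.58 in Sst Npy Nos1 neurons, from 10 and 2 UMIs. Unc5b and Unc5c shared their highest gate, Dcc, Unc5a and Unc5d each had another, and each of these gates was the same in both libraries.

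**Figure D2:**
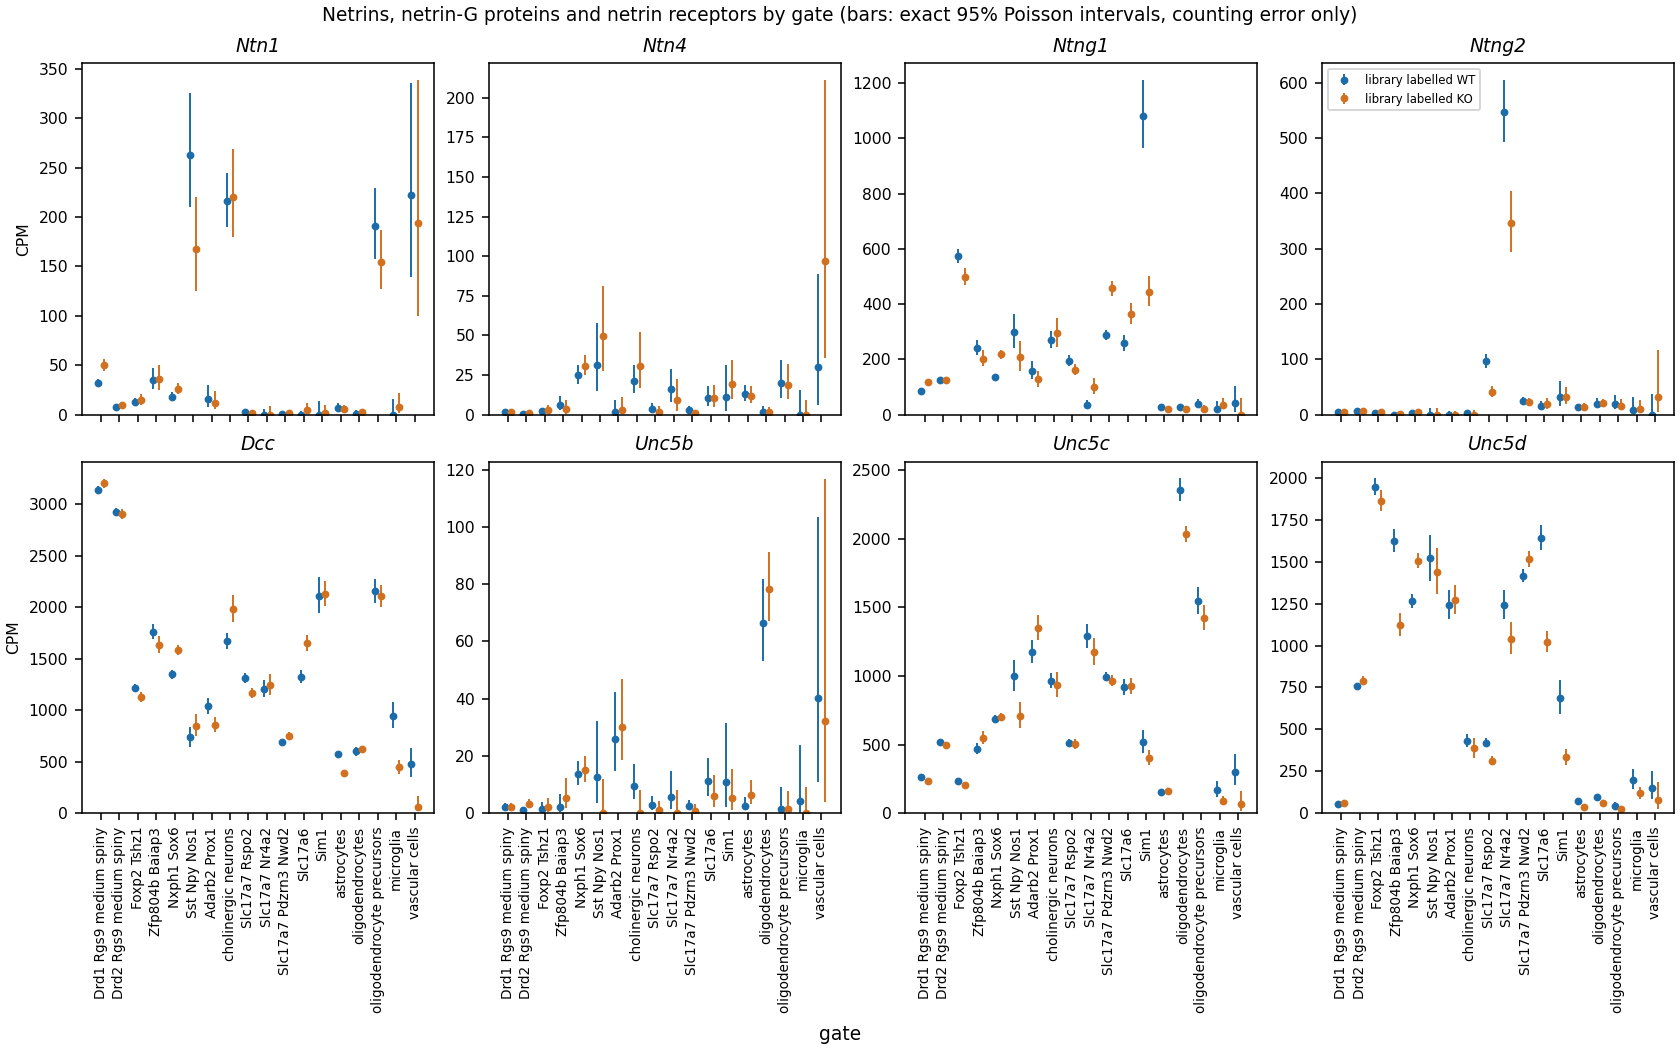
Levels of 8 netrin, netrin-G and netrin receptor genes in CPM (each vertical axis starts at 0 and has its own scale) in 18 gates, with exact 95% Poisson intervals, for the library labelled WT (blue) and the library labelled KO (orange). Ntng2 peaks in Slc17a7 Nr4a2 neurons at 547 and 346, Unc5b and Unc5c in oligodendrocytes, and Unc5d in Foxp2 Tshz1 neurons.

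The gates were compared with each other within each library, counting a gene where the levels differed by at least 1.5-fold the same way in both. The widest gap between the medium spiny types was Unc5d, at 757 and 791 in Drd2 Rgs9 neurons against 54.0 and 59.98 in Drd1 Rgs9 neurons, a log2 difference of 3.81 and 3.72. Of 27 guidance genes with enough UMIs, 8 passed in both libraries (29.6%); of all 11053 genes, 3.91% did. Higher in Drd2 Rgs9 neurons were Unc5d, Unc5c (521 and 498 against 268 and 235) and Robo3. Lower there were Ntn1 (7.77 and 9.51 against 32.2 and 50.04), Slit1, Epha3, Epha8 and Ephb1. Hence a netrin receptor pair and the netrin-1 gene lay on opposite sides of this comparison in each library. The gates themselves were defined by other genes.

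**Figure D3:**
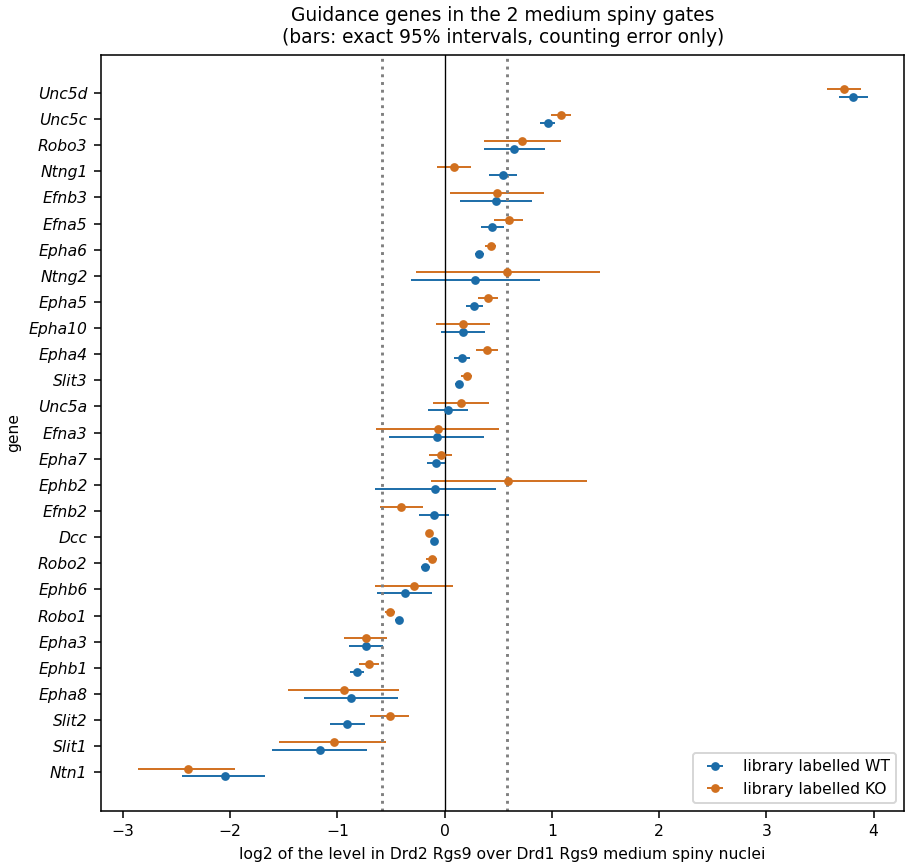
Log2 of the level in Drd2 Rgs9 over Drd1 Rgs9 medium spiny neurons for 27 guidance genes, in the library labelled WT (blue) and the library labelled KO (orange), with exact 95% intervals; dotted lines mark 1.5-fold. Unc5d lies furthest right at 3.81 and 3.72 and Ntn1 furthest left at -2.05 and -2.40.

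The Foxp2 Tshz1 neurons were gated by detection of Foxp2, Tshz1 and Pbx3, markers of intercalated amygdala neurons. Carrying these markers was thus fixed by the gate. They differed from Drd1 Rgs9 medium spiny neurons in 19 of 26 guidance genes (73.1%), 8 higher and 11 lower, against 20.2% of all 10464 genes. Unc5d was higher by log2 5.17 and 4.96, and Ntng1 by 2.75 and 2.08. Slit3 had a log2 difference of -3.21 and -3.17, and Epha4 of -2.94 and -3.10. Ephb2 (36.8 and 28.4 against 6.28 and 5.14) was also higher, and Dcc was lower.

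Excitatory and inhibitory neurons differed in 14 of 32 guidance genes (43.8%), 7 in each direction, against 19.4% of all 14281 genes. Higher in excitatory neurons were Epha3, Epha5, Epha10, Ephb3, Slit1, Slit2 and Ntng2, the last at 106 and 68.5 against 4.18 and 4.51. Lower were Epha4, Epha8, Ephb1, Efnb3, Robo1, Ntn1 and Dcc, the last at 1085 and 1217 against 2361 and 2297.

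Within excitatory neurons, Slc17a7 Nr4a2 neurons differed from Slc17a7 Pdzrn3 Nwd2 neurons in 12 of 20 guidance genes (60.0%), against 18.8% of all 6665 genes. Ntng2, Slit2, Ephb1, Efna5 and Dcc were higher and Epha6, Epha10, Ntng1, Robo1, Robo2, Epha3 and Slit3 lower. The log2 difference of Ntng2 was 4.46 and 3.89, and that of Epha6 was -5.08 and -2.94. Oligodendrocytes differed from their precursors in 9 of 15 (60.0%), against 34.9% of all 6386 genes. Higher in oligodendrocytes were Unc5b, Efnb3, Ephb1, Unc5d and Epha4, and lower were Ntn1, Epha5, Dcc and Robo1. Unc5d and Epha4 had their highest levels in neuron gates. Epha4 passed narrowly in the library labelled KO, at a log2 difference of 0.60 (interval 0.09 to 1.14). Unc5b had 1 UMI in the precursors of each library, so its log2 differences had wide intervals, 2.81 to 10.65 and 3.29 to 11.10. By cluster majority the count was 14 of 17, again against 34.9% of all genes.

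Between the libraries, the guidance genes of excitatory neurons were mostly close. Of 30 genes with at least 50 UMIs, 3 differed by at least 1.5-fold, all lower in the library labelled KO (10.0%). Of all 13056 genes, 8.42% differed that much in either direction and 3.62% were lower. The median log2 ratio of the guidance genes was -0.095, beside 0.024 for all genes.

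Ephb1 went from 112 to 62.5 CPM, a log2 ratio of -0.84 (95% interval -0.98 to -0.71). The Ephb1 gene lies on chromosome 9 from 101922128 to 102354693 (mm10). It was lower in 9 of 11 neuron gates with enough UMIs, including Slc17a7 Nr4a2 neurons (249 and 79.8). The cluster make-up of this gate differed between the libraries, and with equal clusters its ratio there was -0.72. In the excitatory class the clusters were also given the same weights in both libraries, leaving out those with under 20 nuclei in either. With these equal cluster weights the Ephb1 ratio in excitatory neurons was -0.66. With every nucleus thinned to 2000 UMIs it was -0.56, under 1.5-fold. In inhibitory neurons Ephb1 stood at 302 and 257, a ratio of -0.24.

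Ephb6 went from 24.0 to 13.2 in excitatory neurons, a ratio of -0.86 (-1.17 to -0.56), against -0.16 in inhibitory neurons. Ntng2, on chromosome 2 from 29194541 to 29253005, went from 106 to 68.5, a ratio of -0.62 (-0.76 to -0.49). The Slc17a7 Nr4a2 gate, where Ntng2 is highest, held 72 and 40 nuclei. With equal cluster weights in both libraries the Ntng2 ratio in excitatory neurons was -0.15. By cluster majority it was -0.52, also under 1.5-fold. Within single gates, Ntng2 was lower in the library labelled KO in 3 of 3 excitatory gates with enough UMIs. Its ratios were -1.21 in Slc17a7 Rspo2 neurons (96.1 and 41.5), -0.66 in Slc17a7 Nr4a2 and -0.087 in Slc17a7 Pdzrn3 Nwd2 neurons.

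In inhibitory neurons, 1 of 32 guidance genes passed 1.5-fold, against 8.55% of all 15517 genes. It was Ephb3, at 0.79 and 1.43 CPM from 33 and 39 UMIs, so the interval of its log2 ratio of 0.86 ran from 0.15 to 1.57. The median ratio was 0.11 beside 0.043 for all genes, and -0.0057 with equal cluster weights. Values under the threshold included Epha5 (628 and 808, ratio 0.37) and Slit3 (898 and 702, ratio -0.36). The oligodendrocyte marker list, all 9 genes detected, summed to 154 and 224 in inhibitory and 109 and 164 in excitatory neurons; its part in these values was not tested.

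**Figure D4:**
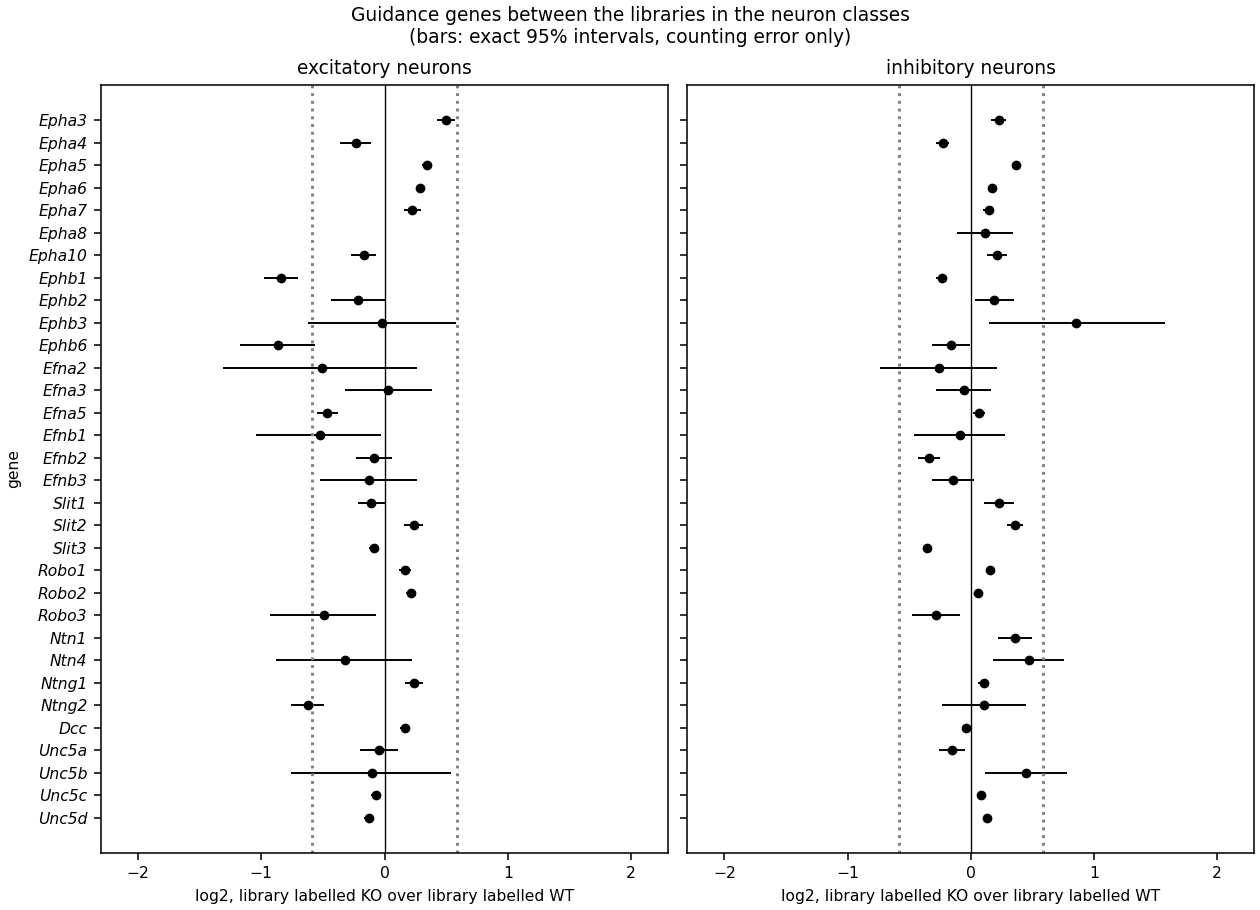
Log2 ratio of the library labelled KO over the library labelled WT for each guidance gene with at least 50 UMIs, in excitatory neurons (left, 30 genes) and inhibitory neurons (right, 32 genes), with exact 95% intervals; dotted lines mark 1.5-fold. Ephb1, Ephb6 and Ntng2 lie past the left line in excitatory neurons and Ephb3 past the right line in inhibitory neurons.

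Some directions recurred across the 12 excitatory and inhibitory subtype gates. Epha5 and Epha6 were higher in the library labelled KO in 11 of 12 gates each, Epha7 in 10 of 12 and Robo1 and Robo2 in 9 of 12. Epha4 was lower in 10 of 12, Slit3 in 9 of 12, and Efna5 and Ephb1 in 9 of 11 each. The Epha6 count includes Slc17a7 Nr4a2 neurons, where its ratio within equal clusters was -0.17. The genes were named for these counts, and the share of all genes reaching them was not measured. Most single ratios were small: those of Epha5 ran from -0.48 to 0.45. The gates of a library share its preparation and depth, so these counts are not repeats of the comparison.

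Several wide ratios came from neuron gates whose make-up differed. In the Sim1 gate 8 of 17 guidance genes passed 1.5-fold (47.1%, against 20.8% of all genes), and in the Slc17a7 Nr4a2 gate 7 of 19 (36.8%, against 21.9%). The cluster shares of the libraries overlapped by 46.3% and 63.6% in these gates. In Slc17a7 Nr4a2 neurons, Epha6 stood at 52.5 and 286, Robo1 at 138 and 290 and Robo2 at 246 and 495. One cluster held 62 of these 72 nuclei in the library labelled WT and 20 of 40 in the other. Within that cluster, Epha6 stood at 22.4 and 19.9, a ratio of -0.17, and the ratios of Robo1 and Robo2 were 0.51 and 0.45. Efna5 there had a ratio of -0.31 and Ntng2 of -0.12. Make-up was more alike in the broad classes, where the shares overlapped by 86.9% in excitatory and 88.6% in inhibitory neurons.

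In the other 10 subtype gates, where the shares overlapped by 83.7% to 95.6%, 0 to 4 members passed 1.5-fold. Ntn1 stood at 32.2 and 50.04 in Drd1 Rgs9 medium spiny neurons, a ratio of 0.64 (0.40 to 0.88), the only 1 of 27 genes there against 7.62% of all genes. Slit2 was the only 1 of 27 in Drd2 Rgs9 neurons, at 52.5 and 80.6 (0.62, interval 0.42 to 0.81), against 7.61%. In Nxph1 Sox6 neurons it was Ntng1, at 134 and 218 (0.69, interval 0.51 to 0.88), 1 of 26 against 7.93%. Foxp2 Tshz1 neurons had 0 of 24 against 8.89%. Zfp804b Baiap3 neurons had 1 of 22 (4.55%) against 11.7%, and Slc17a6 neurons 2 of 20 (10.0%) against 11.4%. These 6 shares lie under the background. The other 4 lie above it: Slc17a7 Rspo2 neurons had 4 of 23 (17.4%) against 10.6%, Adarb2 Prox1 neurons 3 of 17 (17.6%) against 11.9%, Sst Npy Nos1 neurons 3 of 17 (17.6%) against 13.5%, and Slc17a7 Pdzrn3 Nwd2 neurons 2 of 20 (10.0%) against 9.74%. In Slc17a7 Rspo2 neurons Ntng2, Ephb6 and Efnb3 (from 35 and 15 UMIs, with 0 inside its interval) were lower and Epha3 higher, the last at 143 and 241 (0.75, interval 0.54 to 0.97). In Slc17a7 Pdzrn3 Nwd2 neurons Ntng1 stood at 288 and 457 (0.67) and Ephb1 at 82.1 and 52.9 (-0.64).

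In the 4 glial gates, the guidance genes past 1.5-fold were lower in the library labelled KO. Astrocytes had 3 of 17 (17.6%), against 11.3% of all genes in either direction and 6.22% lower. Oligodendrocytes had 5 of 18 (27.8%), against 14.4% and 7.63%. Precursors had 1 of 11 (9.09%), against 12.1% and 5.84%, and microglia 8 of 9 (88.9%), against 27.0% and 12.5%. In microglia Dcc stood at 947 and 446 (ratio -1.09, interval -1.38 to -0.80), Slit3 at 311 and 159 (-0.97), Robo1 at 393 and 241 (-0.71), Epha6 at 273 and 164 (-0.74) and Robo2 at 311 and 198 (-0.65). All 5 genes had their highest level in a neuron gate.

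Some lists of neuron markers moved with these values. In the microglial gate the 7 medium spiny neuron markers, all detected, summed to 3371 and 1967 CPM, a ratio of -0.78. The 8 general neuron markers summed to 3046 and 2242, a ratio of -0.44. Entry to every glial gate required a low score on this general neuron list, so the list's level there was limited by the gate rule. The other neuron lists ran from -1.73 (caudal ganglionic eminence interneurons) to 0.49 (somatostatin neurons). The 8 microglial markers, which also set this gate, summed to 7194 and 10408. The median ratio of the 9 guidance genes was -0.72. RNA released from other nuclei can enter droplets, and its part in these values was not tested; fewer such molecules and a lower level within microglia cannot be told apart.

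In oligodendrocytes the medium spiny list stood at 1283 and 807 (ratio -0.67) and the neuron list at 1628 and 1333 (-0.29), while the inhibitory neuron list (0.26) and the central amygdala list (0.64) were higher. Beside them Slit3 stood at 93.7 and 36.7 (-1.35, interval -1.78 to -0.93), Epha6 at 139 and 62.2 (-1.16), Epha4 at 139 and 84.0 (-0.73) and Unc5d at 96.8 and 58.5 (-0.73). The genes highest in oligodendrocytes in both libraries stayed under 1.5-fold: Unc5c had a ratio of -0.21, Unc5b of 0.24 and Efnb3 of 0.038. Ephb1, highest there only in the library labelled KO, had a ratio of -0.038. Robo1 had the highest ratio there, at 355 and 525 (0.57). Dcc (600 and 623) and Epha5 (113 and 112), both higher in neuron gates, had ratios of 0.055 and -0.0058.

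In astrocytes the medium spiny list stood at 1529 and 1006 (-0.60), the general neuron list at 1442 and 1349 (-0.096) and the basolateral amygdala list at 172 and 215 (0.32). Beside them Unc5d stood at 73.3 and 39.0 (-0.91) and Slit3 at 37.7 and 22.5 (-0.75). Both signs turned when each nucleus took the majority gate of its cluster, to 0.22 for Unc5d and 0.62 for Slit3, so no direction is given for them. With those gates 7 of 22 guidance genes passed 1.5-fold in astrocytes, all higher, against 10.8% of all genes. In precursors, Epha6 stood at 101 and 41.2 (-1.29) from 61 and 29 UMIs, with the medium spiny list at 1115 and 928, while Dcc (-0.033) and Unc5c (-0.12) differed little.

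**Figure D5:**
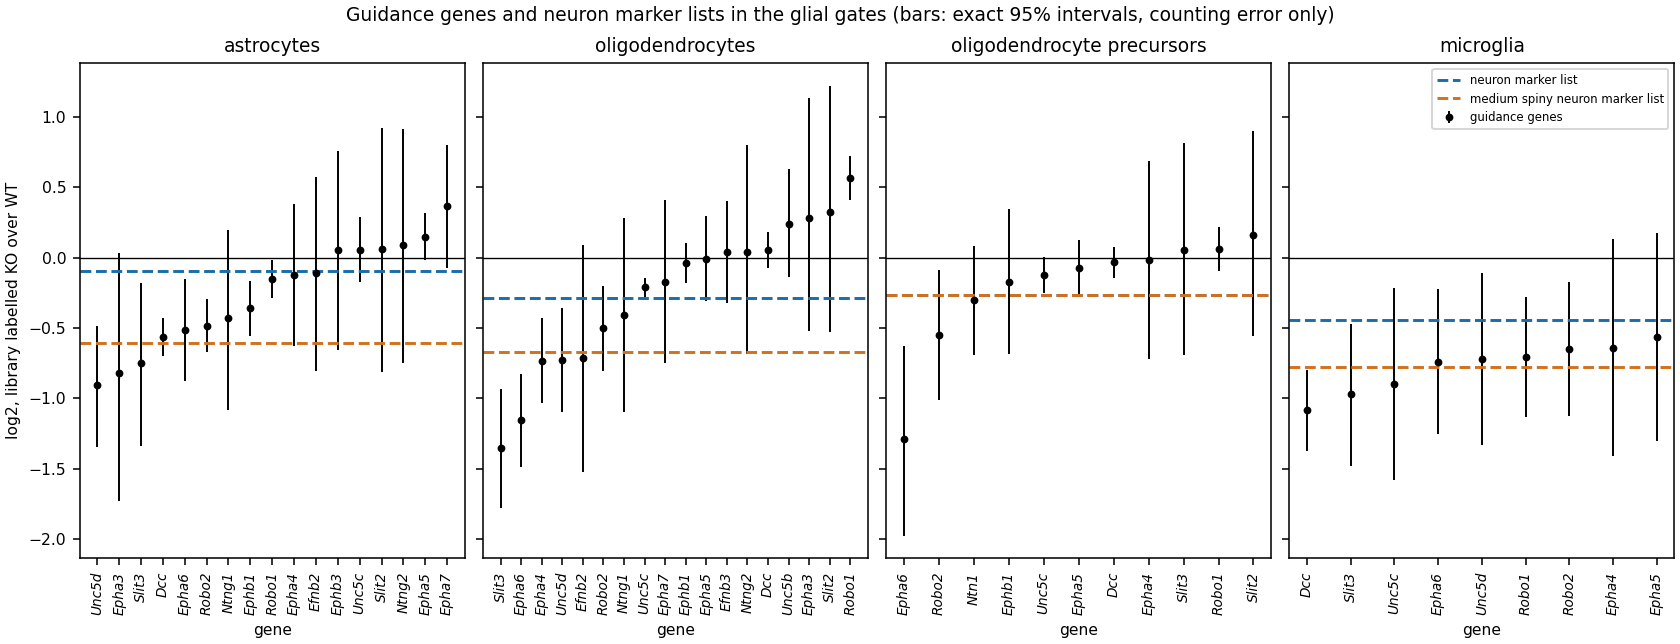
Log2 ratio of the library labelled KO over the library labelled WT for guidance genes with at least 50 UMIs in 4 glial gates (points, with exact 95% intervals), beside the ratio of the summed neuron markers (blue dashed line) and medium spiny neuron markers (orange dashed line), which coincide in oligodendrocyte precursors. In microglia all 9 guidance genes lie under 0, near the medium spiny line at -0.78. A low score on the general neuron list was required for entry to these gates.

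Other genes of these pathways, 51 in 4 lists (further ligands and family members, Eph and ephrin signalling, Slit and Robo signalling, netrin signalling), differed little between the libraries in neurons. In excitatory neurons 2 of 48 with enough UMIs were at least 1.5-fold lower and none higher (4.17%). Of all genes there, 8.42% passed in either direction and 3.62% were lower. In inhibitory neurons 0 of 48 passed, against 8.55%. The Eph and ephrin signalling list had 0 of 16 and 0 of 17 in these classes, and the Slit and Robo list 0 of 12 in each. Lrrc4b, which encodes NGL-3, a synaptic adhesion protein of the family that binds netrin-G proteins, stood at 36.8 and 22.3 in excitatory neurons, a ratio of -0.72 (-0.96 to -0.49), and at -0.17 once nuclei were thinned.

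In glia most pathway genes past 1.5-fold were also lower in the library labelled KO. Their share in either direction lay under that of all genes in each of the 4 gates. In oligodendrocytes and microglia, where all were lower, it lay above the share of all genes that were lower. Oligodendrocytes had 5 of 41 lower and none higher (12.2%, background 14.4% in either direction and 7.63% lower). Kalrn and Tiam1, guanine nucleotide exchange factors, had ratios of -1.17 and -0.69. Fyn, a Src family kinase, stood at 252 and 163 (-0.63). The scaffold Grip1 (-0.61) and the ubiquitin ligase Trim9 (-0.69) were the others. Microglia had 6 of 28 lower and none higher (21.4%, background 27.0% in either direction and 12.5% lower). Among them were Lrrc4c, the netrin-G1 ligand NGL-1, at 725 and 387 (-0.91), Kalrn (-0.87) and Dock3 (-0.76). Astrocytes had 1 higher and 3 lower of 42 (9.52%, background 11.3% in either direction and 6.22% lower). Dscam, a further netrin receptor, stood there at 41.7 and 17.7 (-1.23), but by cluster majority its ratio was -0.003, so no direction is given for it. Precursors had 1 higher and 1 lower of 38 (5.26%, background 12.1% in either direction and 5.84% lower). The part of the neuron marker lists given above in these values was not tested.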

How the data were processed

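The deposited tables hold raw UMI counts per gene and barcode, made by the authors with Cell Ranger 6.0.0 on mm10 from a 10x 5′ kit (version 2), per the submitters' processing notes and the labels' protocols; whether intronic reads were counted is not stated there. The 32285 Ensembl identifiers were named through a gene table. Barcodes with under 500 genes or over 5% mitochondrial UMIs were removed (WT started with 11060 barcodes and 85124128 UMIs, KO with 8666 and 60402979), as were 454 and 217 doublets called by Scrublet in scanpy 1.11.5. Class gates came from some of 25 marker lists, which held no guidance gene. Within the neuron classes, subtype gates were cut mainly by the detection or absence of single marker genes. A glial gate needed a mean scaled marker score of at least 0.8 and a general neuron score under -0.1. Nuclei fitting more than 1 class were left out. Score cut-offs were set after seeing the data; 562 and 372 nuclei passed none, and 1550 and 932 neurons had no class. A further excitatory gate is not reported here. Nuclei lay near a cut when within 0.1 of the glial or 0.02 of the neuron cut-off. Counts were summed per gate and library and divided by the gate's total (CPM), with exact 95% Poisson intervals, and exact binomial intervals for ratios. A gene was compared with at least 50 UMIs over both libraries; for a count of 0, ratios used 3 counts. Values are given in full for each gene's highest gate and for genes past 1.5-fold with at least 100 UMIs and an interval without 0 in 6 main classes; others were chosen after their values were seen. The script was tested on simulated data. Alternatives were median-of-ratios and edgeR 4.0.16 TMM scaling, other minima, doublets kept, cluster gates, equal cluster weights within the neuron classes and thinning. The genes and lists were chosen with earlier results of these data known.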

Additional observations from a re-analysis of the deposited data

Results flagged for a closer look

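Several guidance genes had log2 ratios past 1.5-fold in opposite directions in different gates, library labelled KO over library labelled WT. These differences between gates were not tested, since each genotype had 1 library. Epha6 had 2.45 in Slc17a7 Nr4a2 neurons and -1.16 in oligodendrocytes. Robo1 had 1.07 in Slc17a7 Nr4a2 neurons and -0.71 in microglia, and Robo2 1.01 and -0.65 in the same gates. Epha7 had 0.76 in Sst Npy Nos1 neurons and -0.97 in Sim1 neurons. Ntng1 had 0.695 in Nxph1 Sox6 neurons and -1.28 in Sim1 neurons. Ntn1 had 0.64 in Drd1 Rgs9 medium spiny neurons and -0.65 in Sst Npy Nos1 neurons, where a single cluster with 33 and 27 nuclei gave -0.78. The Sim1 and Slc17a7 Nr4a2 gates drew on different clusters in the libraries, and within equal clusters Epha7 in Sst Npy Nos1 neurons had 0.35.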

How the results depend on the processing

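No paired analysis was possible because each genotype had 1 library; no library could be left out. Over 24 counts and medians, 100 of 130 alternative values stayed the same. A count did so within 1.5 times, and a median within the counting error of the 1 gene nearest it. Of 156 alternative values for 37 single-gene ratios, 133 stayed within counting error, 20 moved and 3 changed sign. Among single genes the sign changes were Slit3 (0.62) and Unc5d (0.22) in astrocytes by cluster majority. The other was Epha6 in Slc17a7 Nr4a2 neurons (-0.17) with equal clusters, an alternative chosen after seeing the data. Medians under 1.5-fold were not counted as sign changes. Those of excitatory neurons (0.0855, thinned), inhibitory neurons (-0.0057, equal cluster weights) and astrocytes (0.26, cluster majority) also turned sign. The cause was not tested. With nuclei thinned to 2000 UMIs, fewer genes were compared. The median ratio was then 0.0855 in excitatory neurons, -0.36 in astrocytes and -0.40 in oligodendrocytes. In that setting 5 of 12 guidance genes passed 1.5-fold in astrocytes (12.8% of all genes), 0 of 7 in precursors (11.9%) and 1 of 1 in microglia (34.7%). With a minimum of 200 UMIs, 3 of 25 guidance genes passed in excitatory neurons (4.08% of all genes) and 0 of 30 in inhibitory neurons (4.20%). The glial counts were 1 of 8 in astrocytes (5.37%, median -0.42), 4 of 12 in oligodendrocytes (9.34%), 0 of 5 in precursors (5.3%) and 1 of 1 in microglia (26.2%). The pathway genes, beside the same shares of all genes, gave 1 of 45 in excitatory and 0 of 47 in inhibitory neurons. In glia they gave 3 of 27 in oligodendrocytes, 1 of 6 in microglia, 0 of 30 in astrocytes and 0 of 20 in precursors. With a minimum of 20 UMIs, 5 of 27 passed in astrocytes (16.5% of all genes), 9 of 24 in oligodendrocytes (19.8%, median -0.31) and 9 of 24 in precursors (21.8%, median -0.32). By cluster majority, 7 of 22 passed in astrocytes, all higher (median 0.26), 8 of 19 in oligodendrocytes (15.2% of all genes), 3 of 16 in precursors (11.9%) and 5 of 6 in microglia (20.9%), and oligodendrocytes differed from precursors in 14 of 17 guidance genes. With doublets kept, 1 of 19 passed in astrocytes (10.6%) and 3 of 13 in precursors (12.6%); with at least 1000 genes per nucleus, 2 of 11 in precursors (11.9%). Depth limits the glial gates, where only 9 to 18 guidance genes could be compared.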

Other observations

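Genes of a ligand and of its receptor stood in different ratios in the neuron gates of both libraries, given here as CPM in the libraries labelled WT and KO. In Foxp2 Tshz1 neurons Slit3 stood at 147 and 127 and Robo1 at 2617 and 2672. In Drd2 Rgs9 medium spiny neurons Slit3 stood at 1486 and 1316 and Robo1 at 1114 and 1223. In cholinergic neurons Ntn1 (216 and 221) was found with Dcc (1674 and 1981), as it was in oligodendrocyte precursors. The share of nuclei holding both members of such a pair was not measured.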
